A study of Mus musculus with 12 samples.

Results

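The connexin and pannexin genes of the mouse organ of Corti are described here across 4 genotypes. The members were the 9 genes Gjb2, Gjb6, Gjb1, Gja1, Gja4, Gjc1, Gjc3, Panx1 and Panx2, taken by gene symbol out of 55348 symbols in the count tables. They comprise 7 connexins and 2 pannexins, and all 9 passed the filter on low counts. Bulk RNA-seq was performed on the organ of Corti at postnatal day 21, after the stria vascularis and modiolus had been removed, in 12 libraries. Wild-type mice, Clrn1-/- mutants, Clrn2-/- mutants and the double mutants Clrn1-/-Clrn2-/- gave 3 libraries each. Clrn1 and Clrn2 encode clarin-1 and clarin-2, membrane proteins of hair cells. The Clrn1-/- mice carried a constitutive deletion of an exon made with PGK-cre, the Clrn2-/- mice carried the constitutive clarinet nonsense allele, and the double mutants came from crossing the 2 lines. The controls came from separate breedings and not from the mutants' litters, so genotype and breeding cannot be told apart. The sources used here do not give the number of animals per library, and p-values therefore measure the spread between these libraries.

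Connexins assemble into gap junctions that join the cytoplasm of neighbouring cells. In the cochlea, Gjb2 (Cx26) and Gjb6 (Cx30) form the main gap junctions of supporting cells and fibrocytes, which are linked to potassium recycling and metabolite exchange, and loss of GJB2 is a common cause of hereditary deafness. Pannexins resemble connexins in their membrane topology but act mostly as large-pore channels of single membranes that can release ATP. Outside the epithelium, Gjb1 (Cx32) and Gjc3 (Cx29) are connexins of myelinating Schwann cells, Gja4 (Cx37) and Gjc1 (Cx45) are connexins of blood vessels, and Gja1 (Cx43) is found in many cell types, fibroblasts and astrocytes among them.

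Gjb2 and Gjb6 lie next to each other on the minus strand of chromosome 14 in GRCm38. Gjb2 occupies chr14:57098600-57104702 and Gjb6 chr14:57123303-57133611, with starts 28.9 kb apart and 18.6 kb between the genes. Their promoter sequences are shown because both neighbours had a positive interaction of the Clrn1 and Clrn2 genotypes, described further on. Each sequence runs 5′ to 3′ on the minus strand, from 250 bases before to 50 bases after the RefSeq start in GRCm38.p6, and covers chr14:57104653-57104952 for Gjb2 and chr14:57133562-57133861 for Gjb6. Capitals mark GGGCGG (a GC box) and TTAAAA, each on either strand.
Gjb2: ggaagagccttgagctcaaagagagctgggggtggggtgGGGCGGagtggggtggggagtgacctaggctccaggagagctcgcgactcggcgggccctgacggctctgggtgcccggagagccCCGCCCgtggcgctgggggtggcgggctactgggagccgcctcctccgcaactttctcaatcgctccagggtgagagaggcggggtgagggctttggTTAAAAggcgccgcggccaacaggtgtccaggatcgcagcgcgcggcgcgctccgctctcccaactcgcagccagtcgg
Gjb6: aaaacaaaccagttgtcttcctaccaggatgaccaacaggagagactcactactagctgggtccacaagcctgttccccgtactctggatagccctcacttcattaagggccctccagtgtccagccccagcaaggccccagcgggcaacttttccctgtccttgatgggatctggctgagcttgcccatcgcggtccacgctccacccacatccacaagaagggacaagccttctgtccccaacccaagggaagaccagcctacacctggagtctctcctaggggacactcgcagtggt

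The promoter windows differed in composition. The Gjb2 window held 27 CpG dinucleotides and 70.0% G and C, with 2 GC boxes and 1 TTAAAA. The Gjb6 window held 6 CpG dinucleotides and 57.3% G and C, and neither of those letter strings. The median of 32851 promoters was 7 CpG dinucleotides and 52.7% G and C. Of those promoters, 35.7% held a GC box and 19.2% held TTAAAA. The TATA box, searched as the letters TATAAA on both strands, occurred in 13.6% of all promoters. The CCAAT box, searched by the letters of its name, occurred in 37.4% of them. The E box, searched as the palindrome CACGTG, occurred in 7.15%. Neither of the windows shown held any of these last 3 motifs. The RefSeq table held promoters for 7 of the 9 members, all but Gjc1 and Panx2.

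Libraries held between 30008679 and 41049302 counts on genes, with a median of 36519360, and edgeR's common estimate of the biological coefficient of variation was 6.15%. Clrn1 held 23.8 to 28.6 CPM (counts scaled to a common library size by TMM) in wild-type and 25.8 to 31.5 CPM in Clrn2-/- libraries, and fell to 2.69 to 3.04 CPM in the libraries labelled Clrn1-/- and 1.77 to 2.71 CPM in the double mutants. Clrn2 held 1.89 to 3.24 CPM in wild-type, 1.04 to 1.38 CPM in Clrn2-/- and 0.921 to 1.18 CPM in the double mutants, but also only 0.854 to 1.04 CPM in Clrn1-/- (edgeR adjusted p = 7.4e-05), so its level does not mark the libraries labelled Clrn2-/-. All 11 supporting cell markers and all 10 hair cell markers were tested and none was at 0.

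Levels of the members were compared per exon length as RPKM, the CPM divided by the length of all exons in kilobases. In wild-type libraries Gjb2 was highest at 179 ± 16.2 RPKM (SD, n = 3), followed by Gjb6 at 138 ± 3.20, Panx2 at 54.8 ± 2.78, Gjc3 at 49.3 ± 0.206 and Gjb1 at 41.7 ± 1.52 RPKM. A gap separated these from Gja1 at 7.31 ± 2.45, Panx1 at 5.22 ± 0.425, Gja4 at 3.18 ± 0.545 and Gjc1 at 1.54 ± 0.154 RPKM. Every neighbouring pair in this order was without overlap between wild-type libraries except Gja1 and Panx1. With the length of the longest transcript in place of all exons the order was the same, but Gjb2 and Gjb6 then overlapped (Gjb6 at 175 RPKM) and Gja1 stood apart from Panx1 (Gja1 at 19.3 RPKM). In Clrn2-/- libraries Panx2 was the fourth at 45.0 ± 6.43 RPKM, after Gjc3 at 50.1 ± 2.20 RPKM, and overlapped both Gjc3 and Gjb1. In Clrn1-/-Clrn2-/- libraries Panx2 was the fifth at 36.8 ± 0.729 RPKM and overlapped Gjb1 at 38.3 ± 1.75 RPKM.

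**Figure D1:**
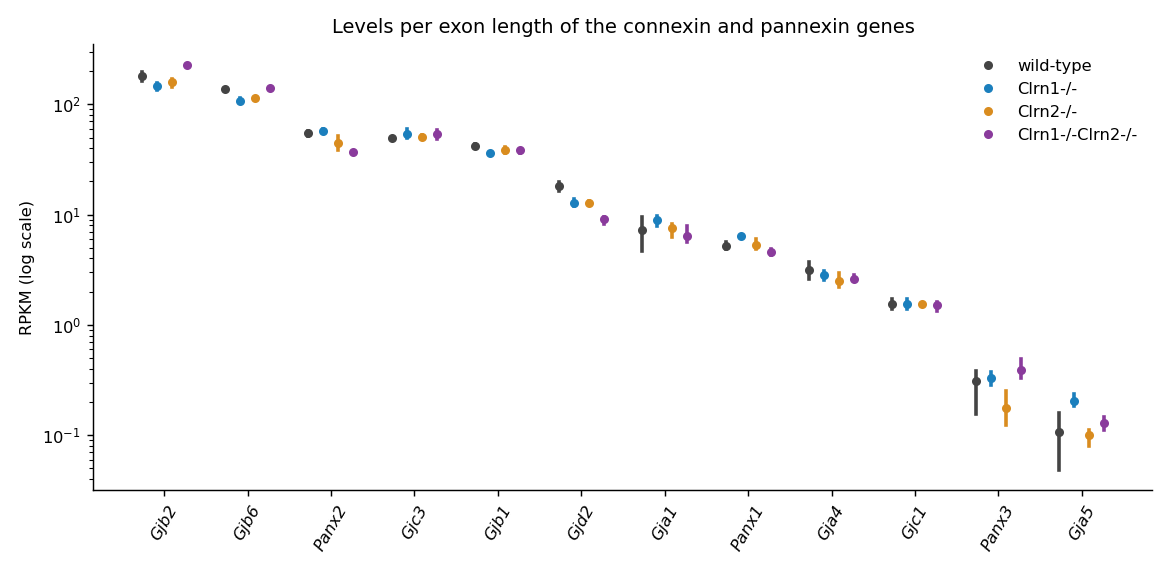
RPKM on a log axis of the 9 members and of Gjd2, Panx3 and Gja5, ordered by the wild-type mean. Dots are the means of 3 libraries in each genotype and bars run from the lowest to the highest library; Gjb2 and Gjb6 are the highest in every genotype, and Panx3 and Gja5 stay below 1 RPKM.

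Gjb2 was lower in Clrn1-/- and higher in Clrn1-/-Clrn2-/- libraries than in wild-type libraries. Wild-type replicates 1 to 3 held 469, 391 and 433 CPM, and the Clrn1-/- replicates held 379, 323 and 348 CPM. The Clrn2-/- replicates held 401, 342 and 405 CPM and the Clrn1-/-Clrn2-/- replicates 529, 555 and 547 CPM. All 3 Clrn1-/- libraries lay below and all 3 double mutant libraries above the wild-type range, whereas Clrn2-/- and wild-type libraries overlapped. Gjb2 fell by 0.30 ± 0.075 (SE) on the log2 scale in Clrn1-/- (1.23-fold lower, edgeR adjusted p = 0.0072). It rose by 0.34 ± 0.074 in the double mutants (1.26-fold higher, edgeR adjusted p = 0.0021), and the Clrn2-/- difference of -0.17 ± 0.075 did not pass (edgeR adjusted p = 0.14). In bulk tissue, fewer cells of a type and less RNA per cell cannot be told apart, here and for all genes that follow.

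Gjb6, the partner of Gjb2 in mixed channels, was lower in both single mutants. Its wild-type replicates held 377, 366 and 360 CPM and the Clrn1-/- replicates 304, 276 and 287 CPM. The Clrn2-/- replicates held 308, 300 and 313 CPM and the double mutants 377, 379 and 374 CPM. The single mutant libraries were all below the wild-type range, and the double mutant libraries overlapped it. Gjb6 fell by 0.35 ± 0.042 in Clrn1-/- (1.27-fold lower, edgeR adjusted p = 2.3e-05) and by 0.26 ± 0.042 in Clrn2-/- (1.20-fold lower, edgeR adjusted p = 6.7e-04). In Clrn1-/-Clrn2-/- libraries the log2 difference was 0.04 ± 0.042 (edgeR adjusted p = 0.55).

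**Figure D2:**
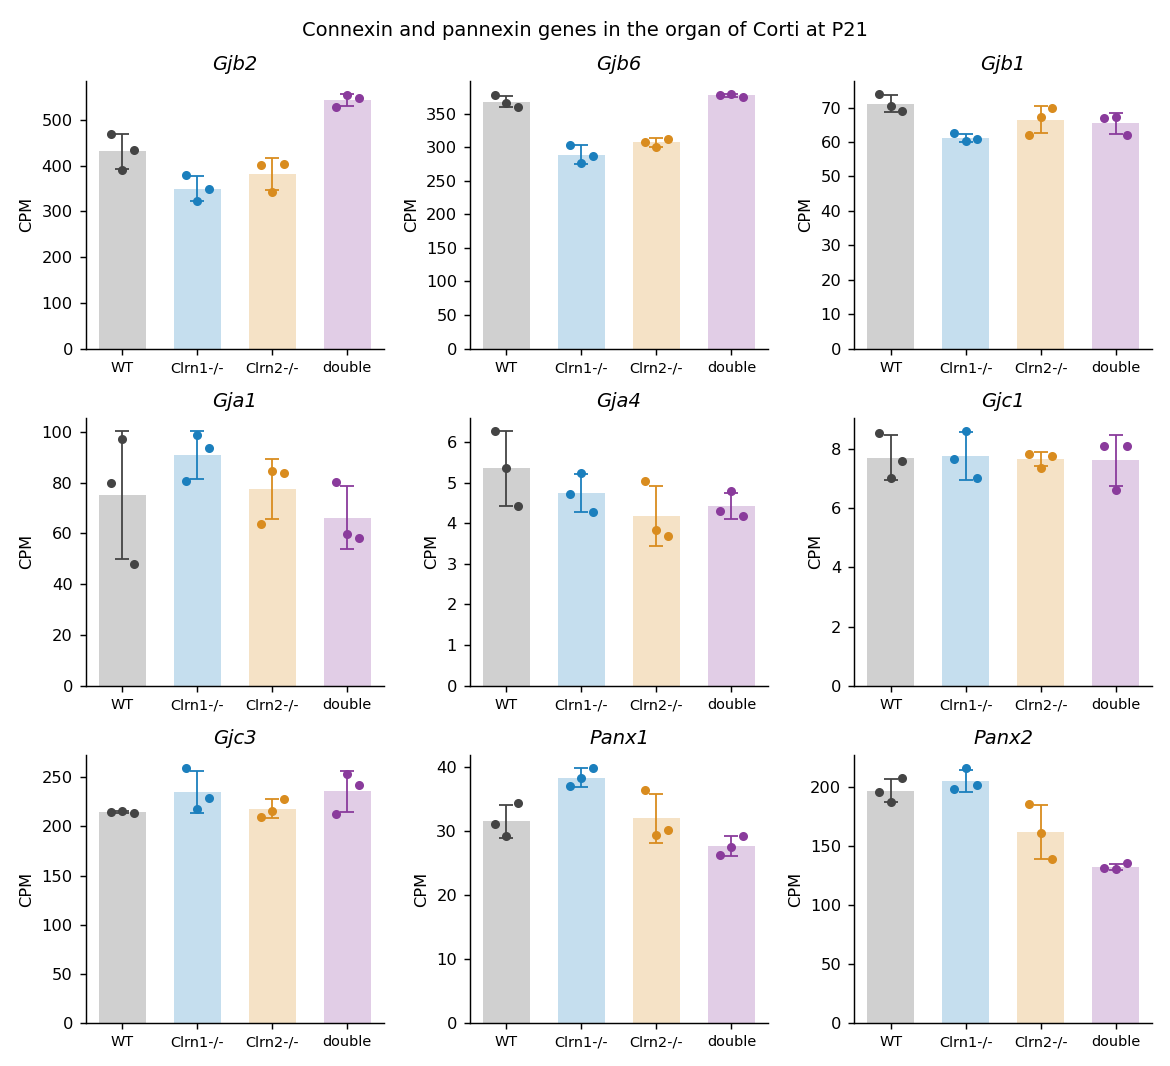
CPM of the 9 members in each library (points), with the mean (bar) and SD (error bar) of 3 libraries per genotype, each axis starting at 0; "double" is Clrn1-/-Clrn2-/-. Gjb2 is highest in the double mutants, Gjb6 is lowest in both single mutants, Panx2 is lowest in the double mutants, and the 3 wild-type points of Gja1 range from 47.7 to 97.2 CPM.

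Whether the effect of losing one clarin depended on the other was tested by the interaction, the double mutant minus Clrn2-/- difference less the Clrn1-/- minus wild-type difference. For Gjb2 the interaction was 0.81 ± 0.11 on the log2 scale (1.75-fold, edgeR adjusted p = 1.0e-04), and for Gjb6 0.65 ± 0.060 (1.56-fold, edgeR adjusted p = 5.3e-06). Both passed in all 21 alternatives, with log2 values of 0.72 to 0.86 for Gjb2 and of 0.60 to 0.67 for Gjb6. Against Clrn1-/- the double mutants held more Gjb2 (0.64 ± 0.075, 1.55-fold, edgeR adjusted p = 1.0e-05) and more Gjb6 (0.38 ± 0.042, 1.31-fold, edgeR adjusted p = 5.8e-06). Against Clrn2-/- they held more Gjb2 (0.51 ± 0.075, edgeR adjusted p = 1.4e-04) and more Gjb6 (0.30 ± 0.042, edgeR adjusted p = 1.1e-04). The differences from wild-type share the wild-type libraries, and the interaction uses all 12 libraries again.

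The ratio of Gjb2 to Gjb6 overlapped between wild-type and each single mutant and was higher in the double mutants. From CPM it was 1.24, 1.07 and 1.20 in wild-type replicates and 1.25, 1.17 and 1.21 in Clrn1-/- replicates. It was 1.30, 1.14 and 1.30 in Clrn2-/- and 1.40, 1.46 and 1.46 in Clrn1-/-Clrn2-/- replicates. The double mutants lay above all other libraries, with a mean 0.27 above wild-type (two-sided exact permutation p = 0.10, the smallest that 3 against 3 libraries allow, adjusted p = 0.15 over 9 such tests). Summed over all connexin genes, the wild-type RPKM was 451 ± 19.9 (SD, n = 3 here and below). It was 381 ± 19.96 in Clrn1-/-, 400 ± 16.9 in Clrn2-/- and 488 ± 9.33 in the double mutants. None of the mutant groups overlapped wild-type in that sum (exact permutation p = 0.10 for each, adjusted p = 0.15). Gjb2 and Gjb6 made up 70.1 ± 1.17% of the wild-type sum and 75.2 ± 0.384% of that of the double mutants, with 66.5 ± 0.920% in Clrn1-/- and 68.5 ± 1.84% in Clrn2-/-.

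**Figure D3:**
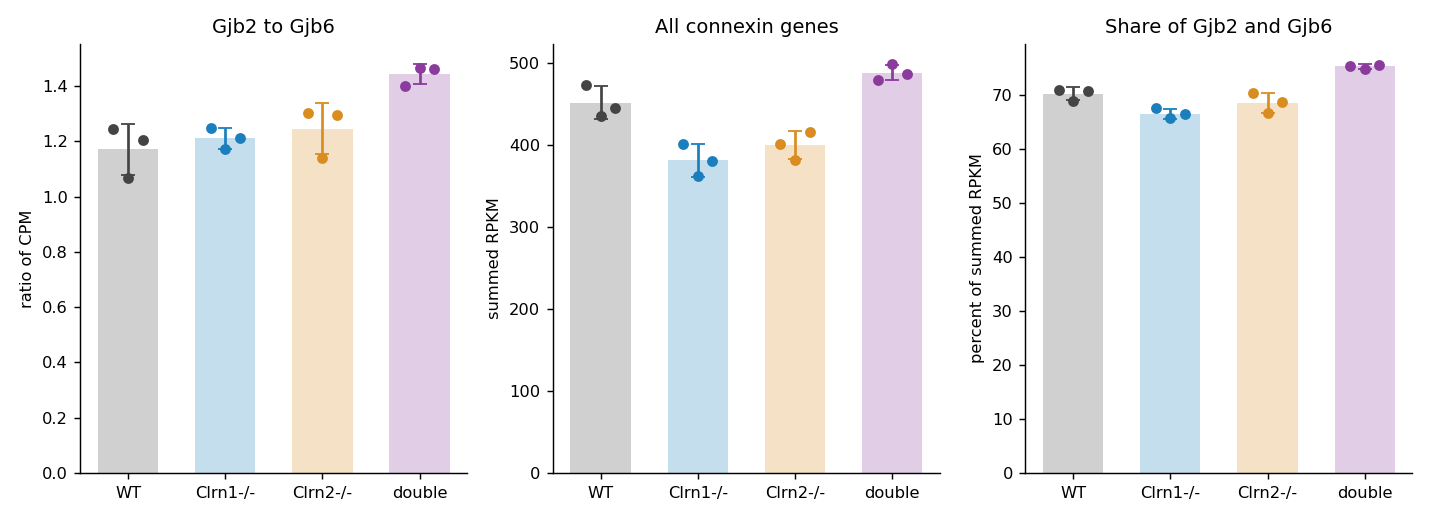
Ratio of Gjb2 to Gjb6 CPM, RPKM summed over all connexin genes, and the percent of that sum held by Gjb2 and Gjb6, per library (points) with mean (bar) and SD (error bar), n = 3 per genotype; "double" is Clrn1-/-Clrn2-/-. The double mutants stand highest in all 3 panels, and the summed RPKM is lower in both single mutants than in wild-type.

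Markers of the cells in which these genes are known moved with genotype, and their part in the Gjb2 and Gjb6 results was not tested. The 9 fibrocyte and fibroblast markers summed to 8391 to 10356 CPM in wild-type, 6363 to 7000 CPM in Clrn1-/-, 6254 to 6710 CPM in Clrn2-/- and 8543 to 9864 CPM in the double mutants. Most of that sum was Coch and Otos, secreted proteins of fibrocytes, with Coch means of 5382, 3533, 3446 and 5480 CPM in the same order. The Otos means were 1766, 691, 809 and 1033 CPM, so that Otos, unlike Coch, stayed below wild-type in the double mutants. Among the 9, 4 rose and 3 fell in Clrn1-/-, 1 rose and 3 fell in Clrn2-/-, and 5 rose and 2 fell in the double mutants. Of all genes tested, 13.6% rose and 13.3% fell in Clrn1-/-, 7.14% and 7.07% in Clrn2-/-, and 19.1% and 17.9% in the double mutants. The 11 supporting cell markers summed to 1550 to 1601 CPM in wild-type, 1938 to 2114 CPM in Clrn1-/-, 1797 to 2116 CPM in Clrn2-/- and 2658 to 2802 CPM in the double mutants. Of these 11, 9 rose and 1 fell in Clrn1-/-, 5 rose and 1 fell in Clrn2-/-, and 9 rose and 1 fell in the double mutants. In the single mutants the fibrocyte sum was thus below wild-type, as Gjb6 was, and the supporting cell sum above it. Other lists also had a positive interaction. All 5 red blood cell markers did (median 1.53), with sums of 700 to 1139 CPM in wild-type, 278 to 379 CPM in Clrn1-/-, 426 to 642 CPM in Clrn2-/- and 535 to 714 CPM in the double mutants. Of 8 mural cell markers 6 did (median 0.57), with sums of 346 to 398, 314 to 367, 285 to 290 and 353 to 357 CPM in the same order of genotypes. Over all genes tested, 9.32% had a positive interaction past the threshold. None of the markers in these 4 lists was at 0. Although the stria vascularis had been removed, its 6 markers were still counted. They summed to 274 to 438 CPM in wild-type, 245 to 310 CPM in Clrn1-/-, 320 to 379 CPM in Clrn2-/- and 275 to 323 CPM in the double mutants. Of these 6, 1 fell in Clrn1-/-, 0 in Clrn2-/- and 3 in the double mutants, and none rose.

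**Figure D4:**
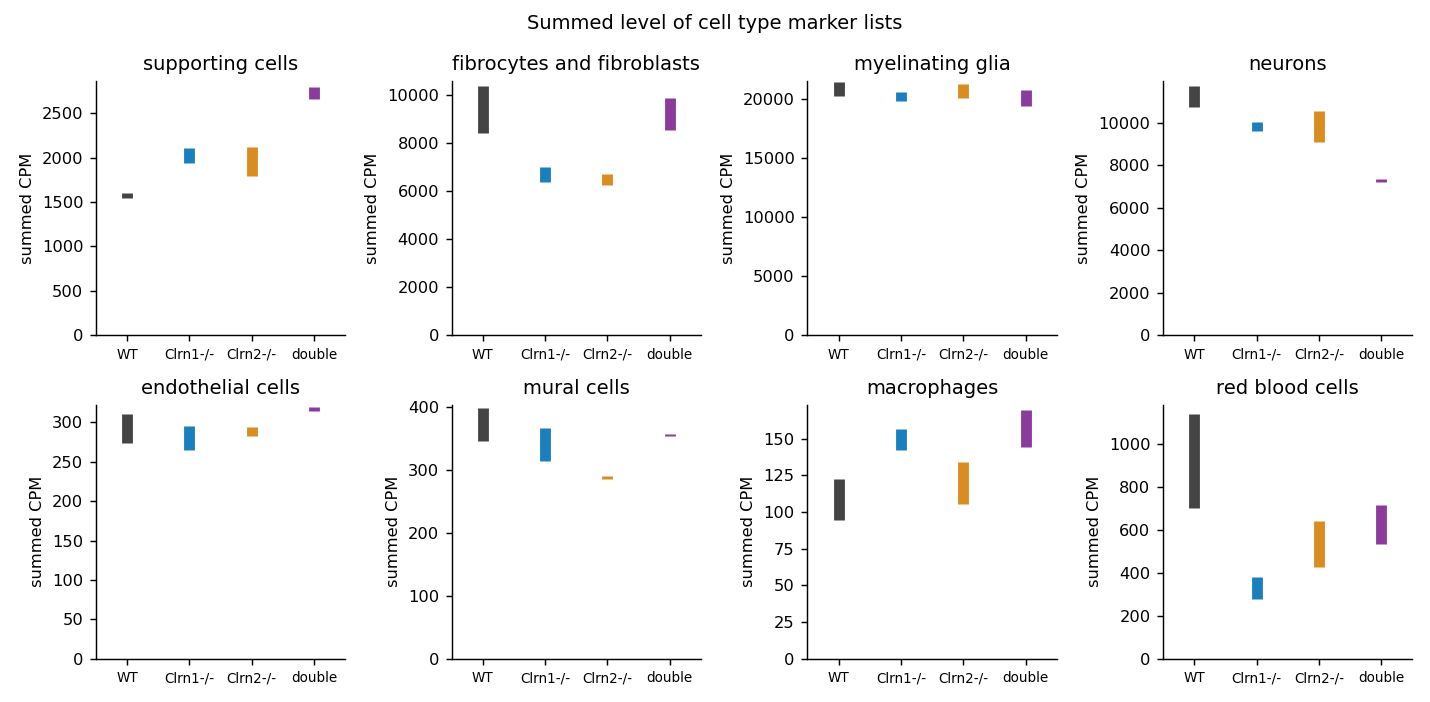
Summed CPM of 8 cell type marker lists, each bar running from the lowest to the highest of 3 libraries per genotype, axes starting at 0; "double" is Clrn1-/-Clrn2-/-. Supporting cell sums are highest and neuron sums lowest in the double mutants, and fibrocyte and fibroblast sums are lower in both single mutants than in wild-type and the double mutants.

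Of the myelin connexins, Gjb1 fell in Clrn1-/- and Gjc3 passed in no comparison. Gjb1 (chrX:101376378-101385629) held 74.0, 70.5 and 69.0 CPM in wild-type replicates and 62.6, 60.4 and 60.9 CPM in Clrn1-/- replicates, with no overlap. It fell by 0.22 ± 0.050 in Clrn1-/- (1.16-fold lower, edgeR adjusted p = 0.0047). The Clrn2-/- replicates held 62.2, 67.2 and 69.9 CPM and the double mutants 67.0, 67.4 and 62.0 CPM. Neither difference passed, at -0.10 in Clrn2-/- (edgeR adjusted p = 0.21) and -0.12 in the double mutants (edgeR adjusted p = 0.070). The latter passed when 1 of 3 libraries was left out, at an edgeR adjusted p of 0.038 without wild-type replicate 3, 0.045 without Clrn2-/- replicate 1 and 0.047 without Clrn2-/- replicate 3. It was -0.16, -0.12 and -0.13 in these fits, and Clrn2-/- libraries enter it only through the filter, scaling and spread shared. Without Clrn2-/- replicate 1, Gjb1 was also lower in Clrn1-/- than in Clrn2-/- (-0.17, edgeR adjusted p = 0.029).

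Gjc3 (chr5:137953461-137963098) held 215, 215 and 214 CPM in wild-type, 260, 218 and 229 CPM in Clrn1-/-, 210, 216 and 228 CPM in Clrn2-/- and 213, 253 and 242 CPM in the double mutants. The coefficient of variation of its wild-type libraries was 0.42%, and the differences of 0.13, 0.02 and 0.14 on the log2 scale did not pass (edgeR adjusted p = 0.16, 0.87 and 0.12). The double mutant difference was 0.20 without double mutant replicate 1 (edgeR adjusted p = 0.027) and 0.18 with library size alone as the scaling (edgeR adjusted p = 0.048). Sums of the 8 myelinating glia markers overlapped between all genotypes, at 20246 to 21448 CPM in wild-type, 19854 to 20661 CPM in Clrn1-/-, 20096 to 21265 CPM in Clrn2-/- and 19411 to 20792 CPM in the double mutants.

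Gja1 (chr10:56377330-56402513) varied more between wild-type libraries than any other member. Wild-type replicates held 80.0, 97.2 and 47.7 CPM, a coefficient of variation of 33.5%. The other genotypes held 80.4, 98.7 and 93.5 CPM in Clrn1-/-, 63.7, 84.5 and 83.9 CPM in Clrn2-/-, and 80.4, 59.9 and 58.1 CPM in the double mutants. Wild-type replicate 3 was the lowest of the 12 libraries, and the groups overlapped except that the double mutants lay below Clrn1-/-. None of the 7 comparisons passed, and the largest of the pairwise differences was -0.46 ± 0.19 between the double mutants and Clrn1-/- (edgeR adjusted p = 0.080). That difference passed without wild-type replicate 2 (edgeR adjusted p = 0.038), without wild-type replicate 3 (0.0065), without double mutant replicate 1 (0.036) and when those 2 groups were fitted alone (0.0032). Without either of those wild-type libraries it was -0.47. Wild-type libraries enter this comparison only through the filter, scaling and spread that the fit shares. Without wild-type replicate 3 the double mutants were also below wild-type (-0.44, edgeR adjusted p = 0.019).

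The vascular connexins passed in none of the 7 comparisons. Gja4 (chr4:127311421-127314039) held 6.27, 5.37 and 4.43 CPM in wild-type, 4.71, 5.23 and 4.29 CPM in Clrn1-/-, 5.03, 3.83 and 3.68 CPM in Clrn2-/- and 4.29, 4.79 and 4.18 CPM in the double mutants. These rest on 125 to 223 counts per library, and the log2 differences from wild-type were -0.17 ± 0.15, -0.35 ± 0.15 and -0.27 ± 0.15. Without wild-type replicate 3 the last 2 passed (-0.47 and -0.41, edgeR adjusted p = 0.038 and 0.039), and without Clrn2-/- replicate 1 the Clrn2-/- difference did (-0.50, edgeR adjusted p = 0.042). Gjc1 (chr11:102799579-102819700) ranged from 6.63 to 8.62 CPM over the 12 libraries, with overlap between all groups. Its log2 differences from wild-type were 0.01 ± 0.11, -0.01 ± 0.11 and -0.02 ± 0.11. Of 8 mural cell markers 5 fell in each single mutant and 3 in the double mutants, while of 8 endothelial markers 1 rose and 1 fell in Clrn1-/- and in the double mutants and 1 rose in Clrn2-/-. Of all genes tested, 13.6% rose and 13.3% fell in Clrn1-/-, 7.14% and 7.07% in Clrn2-/-, and 19.1% and 17.9% in the double mutants.

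Panx1 was higher in Clrn1-/- than in wild-type libraries, and lower in the double mutants than in Clrn1-/-. Panx1 (chr9:15002128-15045478), the widely expressed ATP release channel, held 31.0, 29.2 and 34.3 CPM in wild-type and 36.9, 38.2 and 39.8 CPM in Clrn1-/- replicates, with no overlap. The Clrn2-/- replicates held 36.3, 29.4 and 30.0 CPM and the double mutants 26.2, 27.5 and 29.2 CPM, the latter overlapping wild-type at its lower end. Panx1 rose by 0.28 ± 0.078 in Clrn1-/- (1.22-fold, edgeR adjusted p = 0.014), a call lost without wild-type replicate 2 (0.23, edgeR adjusted p = 0.053). Its log2 difference was 0.02 in Clrn2-/- and -0.19 for Clrn1-/-Clrn2-/- (edgeR adjusted p = 0.91 and 0.078), and the latter passed without wild-type replicate 2 or Clrn2-/- replicate 1 (edgeR adjusted p = 0.033 and 0.029). The double mutants fell below Clrn1-/- by 0.47 ± 0.079 (1.39-fold lower, edgeR adjusted p = 2.8e-04), and the interaction was -0.49 ± 0.11 (edgeR adjusted p = 0.0067). Clrn1-/- was above Clrn2-/- by 0.26 (edgeR adjusted p = 0.029), a call lost without any 1 of Clrn1-/- replicates 2 and 3 and Clrn2-/- replicates 2 and 3, at edgeR adjusted p of 0.071 to 0.12. The difference between the double mutants and Clrn2-/- was -0.21 (edgeR adjusted p = 0.066) and passed without any 1 of wild-type replicates 2 and 3, Clrn2-/- replicates 2 and 3 and double mutant replicate 3 (edgeR adjusted p = 0.031 to 0.047). It also passed with DESeq2 (-0.21, DESeq2 adjusted p = 0.046) and without a filter on low counts (edgeR adjusted p = 0.0092).

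Panx2 was lower in Clrn2-/- and in the double mutants than in wild-type. Panx2 (chr15:89059734-89073567), a pannexin known mainly from neurons, held 196, 188 and 208 CPM in wild-type and 198, 216 and 202 CPM in Clrn1-/- replicates. Clrn2-/- replicates held 186, 161 and 139 CPM, and the double mutants 132, 130 and 135 CPM. The Clrn2-/- and double mutant libraries lay below all wild-type and Clrn1-/- libraries, and the spread among Clrn2-/- libraries was the widest. Panx2 fell by 0.57 ± 0.076 in the double mutants (1.49-fold lower, edgeR adjusted p = 2.0e-05) and by 0.28 ± 0.075 in Clrn2-/- (1.22-fold lower, edgeR adjusted p = 0.019), with 0.06 ± 0.075 in Clrn1-/- (edgeR adjusted p = 0.60). The Clrn2-/- call was lost without any 1 of wild-type replicates 1 and 3 and Clrn2-/- replicates 2 and 3 (edgeR adjusted p = 0.050 to 0.080) and when only those groups were fitted (0.079). In that order of libraries the log2 difference was -0.28, -0.24, -0.28 and -0.18, and it was -0.28 with only those groups.

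The double mutants were also below each single mutant for Panx2, by 0.63 ± 0.076 against Clrn1-/- (1.55-fold lower, edgeR adjusted p = 1.2e-05) and by 0.29 ± 0.076 against Clrn2-/- (1.22-fold lower, edgeR adjusted p = 0.0097). With 1 library left out the difference from Clrn2-/- ranged from -0.40 to -0.19, and it passed in all 21 alternatives. Clrn1-/- was above Clrn2-/- by 0.34 (edgeR adjusted p = 0.0048). The interaction of -0.35 ± 0.11 passed (edgeR adjusted p = 0.033) but not without any 1 of 6 libraries, namely wild-type replicates 1 and 2, Clrn1-/- replicate 2, Clrn2-/- replicate 1 and double mutant replicates 1 and 2, at edgeR adjusted p of 0.052 to 0.069. The 7 neuron markers summed to 10717 to 11728 CPM in wild-type, 9592 to 10024 CPM in Clrn1-/-, 9094 to 10555 CPM in Clrn2-/- and 7216 to 7342 CPM in the double mutants. Of the 7, 3 fell in each single mutant and 6 in the double mutants, the latter at a median log2 change of -0.62, none rose, and none was at 0. Their part in the Panx2 result was not tested.

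**Figure D5:**
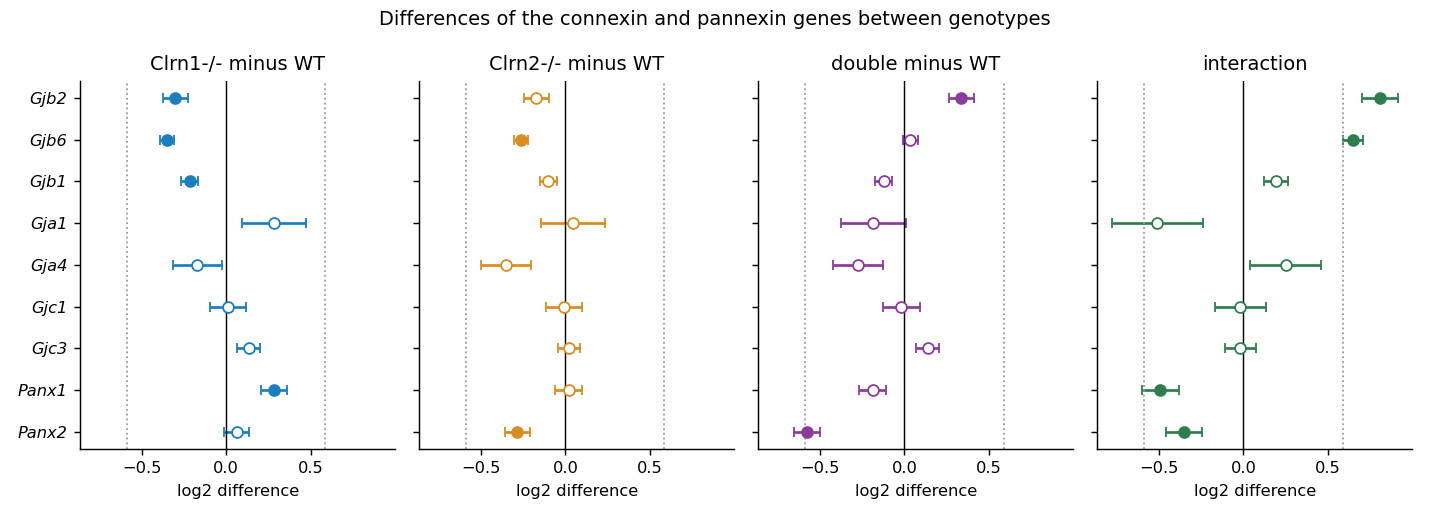
Log2 differences of the 9 members from wild-type in each mutant, and the interaction, with SE bars from edgeR (3 libraries per genotype; filled points passed at an adjusted p of 0.05, dotted lines mark 1.5-fold; "double" is Clrn1-/-Clrn2-/-). Gjb2 and Gjb6 lie at 0.81 and 0.65 in the interaction panel, and no difference from wild-type reaches the dotted lines.

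Counted over the 9 members, 1 rose and 3 fell in Clrn1-/- against wild-type, where 13.6% of the 19052 genes tested rose and 13.3% fell. In Clrn2-/- none rose and 2 fell (Gjb6 and Panx2), where 7.14% of genes rose and 7.07% fell. In the double mutants 1 rose (Gjb2) and 1 fell (Panx2), where 19.1% of genes rose and 17.9% fell. The median log2 difference of the members was 0.01, -0.10 and -0.12 in these comparisons, beside -0.0031, -0.0025 and 0.0010 over all genes tested. Against Clrn1-/- the double mutants had 2 members higher and 2 lower (background 15.7% and 14.6%), and against Clrn2-/- 2 higher and 1 lower (14.4% and 13.2%). Between the single mutants, 2 members were higher in Clrn1-/- and 0 lower (9.51% and 8.99%), and in the interaction 2 were positive and 2 negative (9.32% and 8.06%). In all, 5 of the 9 members passed in at least 1 of the 7 comparisons, near the 58% of all genes tested that did, and 4 passed in none, namely Gja1, Gja4, Gjc1 and Gjc3.

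With the further minimum of a 1.5-fold change, 0 members passed against wild-type by edgeR, limma-voom or DESeq2 in any mutant, also at an unadjusted p under 0.05, where 7.22% of all genes did in Clrn1-/-, 2.66% in Clrn2-/- and 9.9% in the double mutants. At that minimum Gjb2 and Panx2 passed between the double mutants and Clrn1-/- (background 7.23%) and Gjb2 and Gjb6 in the interaction (5.5%). Again 0 did between the double mutants and Clrn2-/- (5.1%) or between the single mutants (4.73%) by any of the 3 tools, at adjusted or unadjusted p. Without the fold minimum, edgeR's unadjusted p was under 0.05 for 4, 4 and 4 members in the 3 comparisons with wild-type, against 4, 2 and 2 at the adjusted p. Of all genes tested, 37.9%, 27.6% and 45.2% had an unadjusted p under 0.05 in these comparisons.

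Of the 14 other connexin and pannexin genes, 4 were tested, 3 of which are described here. Gjd2 (Cx36, chr2:114009601-114013619), the connexin of electrical synapses between neurons, fell in every mutant. It held 51.3, 47.5 and 56.9 CPM in wild-type, 36.4, 34.4 and 40.1 CPM in Clrn1-/-, 38.4, 36.8 and 35.5 CPM in Clrn2-/- and 23.5, 27.4 and 27.2 CPM in the double mutants. Both single mutants lay below wild-type and above the double mutants with no overlap. The log2 differences were -0.49 ± 0.074 in Clrn1-/- (edgeR adjusted p = 1.6e-04), -0.49 ± 0.074 in Clrn2-/- (3.6e-04) and -0.99 ± 0.076 in the double mutants (1.99-fold lower, 7.4e-08). Its interaction was -0.01 ± 0.11 (edgeR adjusted p = 0.96).

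Gja5 (Cx40) ranged from 0.278 to 1.36 CPM and is uncertain, since 63.9% of its stranded counts lay on the opposite strand. It was higher in Clrn1-/- than in wild-type (0.95 ± 0.30, 11 to 43 counts per library, edgeR adjusted p = 0.029). Panx3 stayed between 0.42 and 1.67 CPM and was higher in the double mutants than in Clrn2-/- (1.12 ± 0.33, edgeR adjusted p = 0.020). The 10 that were not tested, Gja3, Gja6, Gja10, Gjb5, Gjd3, Gjd4 and Gje1 among them, had means under 0.3 CPM in every genotype, and Gje1 had 0 counts in all libraries, where 3 counts amount to 0.0759 to 0.0983 CPM.

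Of 17 tested genes whose proteins bind or regulate connexins, 8 rose and 4 fell in Clrn1-/-Clrn2-/- (median log2 difference 0.10, beside 0.0010 over all genes). Of the 17, 4 rose and 1 fell in Clrn1-/-, and 2 rose and 1 fell in Clrn2-/-. Of all genes tested, 19.1% rose and 17.9% fell in the double mutants, 13.6% and 13.3% in Clrn1-/-, and 7.14% and 7.07% in Clrn2-/-. The first of the 17 by adjusted p in the double mutants were Cav1, a caveolin of lipid rafts, at 0.69 ± 0.060 (1.61-fold, edgeR adjusted p = 2.8e-07) and Dbn1, the actin-binding drebrin, at -0.48 ± 0.047 (9.9e-07). Cdh2, N-cadherin of adherens junctions, differed by -0.33 ± 0.045 (edgeR adjusted p = 2.7e-05) and Ccn3, a matricellular protein that binds Cx43, by 0.58 ± 0.092 (1.3e-04).

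Among 12 genes of other large-pore channels 9 were tested, of which 4 rose and 2 fell in the double mutants (median -0.06), 3 rose and 1 fell in Clrn1-/-, and none rose and 1 fell in Clrn2-/-. Over all genes tested these shares were 19.1% and 17.9%, 13.6% and 13.3%, and 7.14% and 7.07% in the same order. Lrrc8b and Lrrc8e, subunits of volume-regulated anion channels, rose by 0.56 ± 0.058 (edgeR adjusted p = 1.7e-06) and 1.14 ± 0.12 (2.20-fold, edgeR adjusted p = 1.8e-06) in the double mutants. P2rx7, an ATP-gated channel, rose by 0.23 ± 0.066 (edgeR adjusted p = 0.012) and Calhm5 by 0.49 ± 0.16 (0.024). Lrrc8c, a further subunit of those anion channels, fell by 0.15 ± 0.045 (edgeR adjusted p = 0.015).

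Genes around Gjb2 and Gjb6 did not pass the interaction test. Within 250 kb of either start lie 11 annotated genes, of which 6 were tested and 4 of these are not connexins. Zmym2 had an interaction of 0.10 ± 0.066 (SE, edgeR adjusted p = 0.33) and Gm8983 of 0.04 ± 0.23 (0.94). Gm4491, which lies between Gjb2 and Gjb6, had 0.47 ± 0.69 (0.70), and Gm8971 had 1.08 ± 0.48 (0.14). The SEs of Gm4491 and Gm8971 are too wide for the test to tell an interaction of the size of that of Gjb2 from none.

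The genes most like Gjb2, Gjb6 and Gja1 over the 12 libraries were sought among the 10954 genes whose mean reached 10 CPM, by the root mean square difference of centred log2 CPM. This is a description over 12 libraries that share their genotypes and scaling. Nearest to Gjb2 were Nfix, a transcription factor, at 0.072, Pabpc1, the poly(A)-binding protein, at 0.086, and Pip5k1b, a phosphoinositide kinase, at 0.086, against a median of 0.28 over all genes. Gjb6 ranked 47 in that list. Nearest to Gjb6 were the ribosomal protein genes Rpl23a at 0.061 and Rpl35 at 0.064 and the proteoglycan gene Srgn at 0.066 (median 0.20), and Gjb2 ranked 563. Nearest to Gja1 were Mlc1, a membrane protein of astrocytes, at 0.11, Osr1, a transcription factor, at 0.12, and Slc6a13, a GABA transporter, at 0.13 (median 0.34).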

How the data were processed

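The 12 deposited tables hold raw counts per gene symbol, which the authors made with STAR against GRCm38.p6 and Gencode annotation. The STAR version is not given in the sources used here. Counts in the orientation of the stranded poly-A kit were used, which held 95.2% to 95.6% of stranded counts. Reads not assigned to a gene, 13.5% to 15.8%, stayed out of library sizes. Gene positions and exon lengths came from Gencode M21 of the same build, in which 53244 of 55348 symbols matched 1 gene.

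Genes with at least 10 counts by filterByExpr were kept (19052). Genotypes were compared in one fit of the 12 libraries with edgeR 4.0.16 (R 4.3.3), TMM scaling and the quasi-likelihood F test, with p-values adjusted by Benjamini-Hochberg over all genes tested, and a gene passed at an adjusted p of 0.05. Libraries outside a comparison thus still enter it through the filter, scaling and estimate of spread that the fit shares. SE is the absolute log2 difference divided by the square root of F. CPM and RPKM were computed from TMM-scaled library sizes. The study's own thresholds add a change of 1.5-fold. Alternatives were limma-voom (limma 3.58.1), DESeq2 1.42.0, other scaling and filters, unstranded counts, fitting just the groups compared, a block for the replicate number, and leaving out each library. The scripts were tested on simulated data.

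Named genes were all 9 members, the other family genes tested, up to 5 genes per partner and channel list by adjusted p in the double mutants, genes within 250 kb of Gjb2 or Gjb6, and the 3 nearest profiles of Gjb2, Gjb6 and Gja1. A few genes that the rule names are not reported here. The members and lists were chosen with earlier results of these data known. Same-numbered libraries deviated together (all 3 correlations above 0.1, at 0.11 to 0.29) only between wild-type and Clrn1-/-, and no label says what the number stands for. Libraries of a genotype differed by more than counting noise, at 4.13 to 17.4 times the counting variance. The limit of 3 counts covers counting error only, and SD and SE include the spread between libraries.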

Additional observations from a re-analysis of the deposited data

Results flagged for a closer look

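For 4 of the 9 members the effect of losing one clarin differed with the state of the other by the interaction term of the edgeR fit. The interaction was 0.81 for Gjb2 (edgeR adjusted p = 1.0e-04) and 0.65 for Gjb6 (edgeR adjusted p = 5.3e-06) on the log2 scale. It was -0.49 for Panx1 (edgeR adjusted p = 0.0067) and -0.35 for Panx2 (edgeR adjusted p = 0.033), and the last was lost without any 1 of 6 libraries. Over all 19052 genes tested, 9.32% had a positive and 8.06% a negative interaction past the same threshold.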

How the results depend on the processing

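Among the values of single members under the alternatives, 1276 kept their side of the threshold, 31 passed newly and 16 were lost, and no called value changed sign. The further 1.5-fold minimum left 0 members against wild-type in Clrn1-/-, Clrn2-/- and the double mutants, 2 between the double mutants and Clrn1-/-, 0 between the double mutants and Clrn2-/-, 0 between the single mutants and 2 in the interaction. Fitting only the groups compared left 1 member between Clrn2-/- and wild-type. Without a filter on low counts 4 members passed between the double mutants and wild-type and 5 between the double mutants and Clrn2-/-. Gjb2 then also passed between Clrn2-/- and wild-type (-0.17, edgeR adjusted p = 0.011). Gja1 passed between Clrn1-/- and wild-type, the double mutants and Clrn1-/-, the single mutants, and in the interaction (edgeR adjusted p = 2.9e-16 to 4.2e-04). In that fit of 33895 genes the prior degrees of freedom were infinite, and the quasi-dispersion of Gja1 was 0.72 in place of 9.40, so its own spread between libraries was no longer used.

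Leaving out 1 library gave 3 to 4 members for Clrn1-/- and 1 to 3 for Clrn2-/- against wild-type, and 2 to 5 for the double mutants, the highest without wild-type replicate 3. It gave 4 to 5 between the double mutants and Clrn1-/-, 3 to 4 between the double mutants and Clrn2-/-, 1 to 3 between the single mutants and 3 to 4 in the interaction. With the replicate number as a block, 4 members passed for Clrn1-/- against wild-type, where the numbers pair the libraries, and 2, 2, 4, 3, 2 and 4 in the other comparisons, and no call of a member changed. Of the 18 same-numbered pairs of libraries 7 had a correlation above 0.1, with a range of -0.28 to 0.31. Genes under about 0.0983 CPM are at the limit of depth, and 3 libraries per genotype limit small changes.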
